A study of Mus musculus with 6 samples.

Results

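Baseline transcript levels were described in Melan-a cells that had received a control siRNA, labelled siScr. Of the 6 arrays of the series, the 3 siScr arrays were used. The value table holds 16383 rows, of which 7715 are paired with 1 gene, and the row with the highest mean was taken for each gene. This left 7659 genes, 4614 of them protein-coding, which were ranked by their mean log2 signal over the 3 arrays. Melan-a is an immortalised line of pigmented mouse melanocytes, given as C57BL/6 and female. All 3 cultures were kept in 200 nM of TPA, a phorbol ester that activates protein kinase C, and took up siScr with a lipid reagent and magnetic particles. Replicate 1 was at passage 47, replicate 2 at passage 54 and replicate 3 at passage 56, with 1 array each, and the RNA integrity number was 10.0 in every culture. Titles place the harvest at 48 h, but the protocol in the labels amounts to less time between siRNA and lysis. The values therefore describe 1 cell line under TPA and transfection, and no untransfected culture was among these arrays. Row identifiers covered chromosomes 1 to 4, so pigment genes of other chromosomes, among them tyrosinase, Dct, Pmel, Mitf, Sox10 and Kit, were not analysed here.

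Melanocytes make melanin in melanosomes, organelles related to lysosomes that mature through sorting complexes shared with the endosomal system. Melanin is built from tyrosine by tyrosinase and its relatives Tyrp1 and Dct, and mature melanosomes travel along microtubules and actin before they are passed to keratinocytes. The lineage arises from the neural crest, and Pax3, Sox10 and Mitf direct its pigment genes. Growth of melanocytes in culture commonly depends on phorbol esters.

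A gene was called strong when its mean lay in the top 10% of ranked genes (log2 8.50 or more), dim when it lay under the 30th percentile (below log2 4.16), and intermediate otherwise. These limits are positions in the ranking and not a test of presence. Means ran from 1.88 to 13.39 with a median of 5.37. Of protein-coding genes, 423 (9.17%) were strong, 3109 (67.4%) intermediate and 1082 (23.5%) dim, beside 10% strong, 60% intermediate and 30% dim over all genes by definition. Without the olfactory and vomeronasal receptor genes, 9.9% of 4273 protein-coding genes were strong, 72.3% intermediate and 17.8% dim. The members on either side of the limits were nearly equal. Pmf1 had 8.50 at rank 766 and Aida 8.50 at rank 767, and at the lower limit 9830132P13Rik had 4.16 at rank 5361 and Gm4847 4.16 at rank 5362. Olfactory and vomeronasal receptor genes, which sense odours and pheromones in the nose, gave a picture of the lower range. Of 430 such genes 406 were dim and 0 strong, with a median of 2.77 and a 95th percentile of 4.26. Of the 430, 341 were protein-coding, of which 323 were dim, and 89 were pseudogenes or of other types. Probe sets differ in how well they bind, so signals of different genes were only ranked, and no ratio between genes is given.

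**Figure D1:**
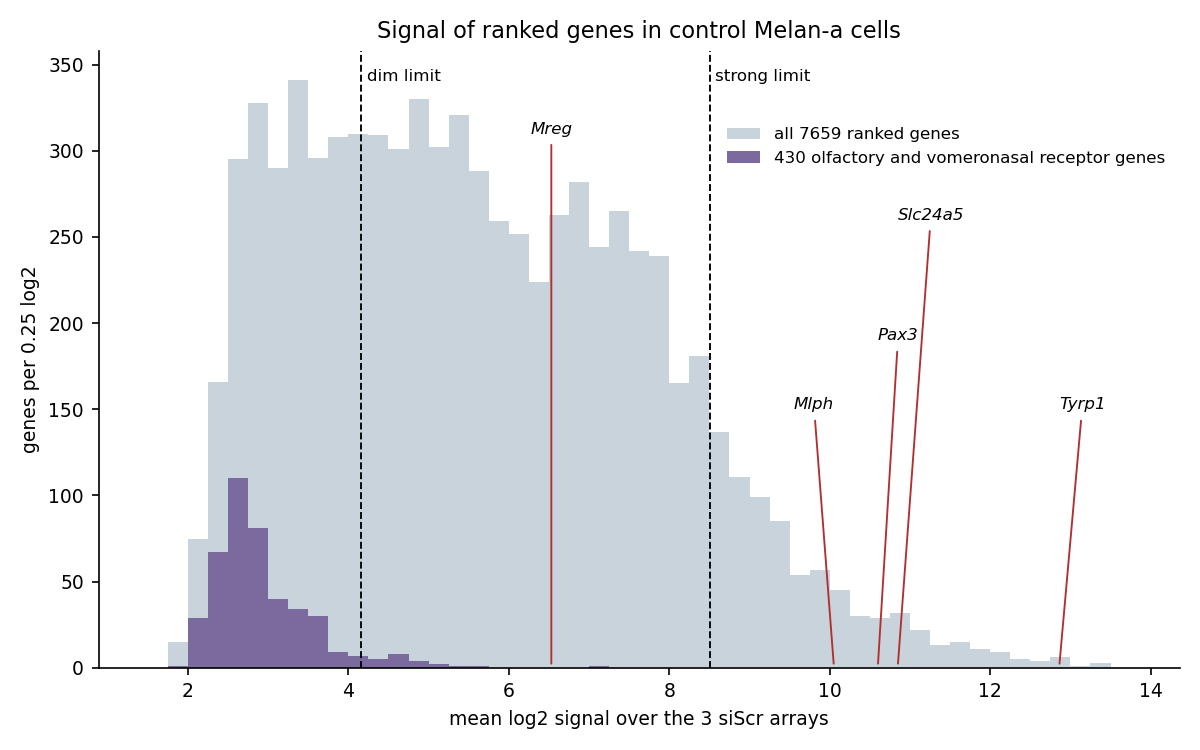
Number of genes (vertical axis) per 0.25 log2 of mean signal over the 3 siScr arrays (horizontal axis), for all 7659 ranked genes in grey and the 430 olfactory and vomeronasal receptor genes in purple. Dashed lines mark the dim limit at 4.16 and the strong limit at 8.50. Tyrp1, Slc24a5, Pax3 and Mlph lie right of the strong limit and Mreg lies between the limits.

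Of the 5 melanocyte markers, 4 were strong and 1 was intermediate, beside 10% strong and 60% intermediate over all genes. Tyrp1, a melanosomal glycoprotein of melanin synthesis, gave 12.96 at passage 47, 12.77 at passage 54 and 12.84 at passage 56. Its mean of 12.86 ± 0.097 (SD, n = 3) was rank 9 of all genes and rank 1 of protein-coding genes. Slc24a5, a cation exchanger of pigment cells whose loss lightens pigmentation, gave 11.20, 10.50 and 10.85 at passages 47, 54 and 56 (10.85 ± 0.35, SD, n = 3). That placed it at rank 113 overall and 15 among protein-coding genes. Pax3, a paired-box factor of the neural crest and melanocyte lineage, gave 10.67, 10.45 and 10.67 (10.60 ± 0.13, SD, n = 3) and was rank 25 of protein-coding genes. Mlph, melanophilin, which ties Rab27a on the melanosome to myosin Va, gave 10.28, 9.64 and 10.23 (10.05 ± 0.36, SD, n = 3) and was rank 59. Mreg, melanoregulin, which acts in melanosome distribution, gave 6.71, 6.32 and 6.57 (6.53 ± 0.20, SD, n = 3) and was only rank 1915. All 5 markers were lowest at passage 54, as deposited and after quantile normalisation. That passage was lowest for 34.5% of all genes and 53.0% of the strong band as deposited, and for 46.6% of the strong band after quantile normalisation. All 5 were highest at passage 47 as deposited, but only 3 after quantile normalisation, beside 28.0% of all genes and 48.4% of the strong band as deposited.

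The promoters of 5 strong genes known from pigment cells or pigmented epithelia are printed for a short E-box, CATGTG, which reads CACATG on the opposite strand, forms the core of the M-box bound by Mitf. Each window, from the RefSeq promoter table on build GRCm38.p6, holds 250 bases before and 50 after the start site, written 5′ to 3′ on the gene's strand. Capitals mark CATGTG or CACATG and the related E-box CACGTG. Tyrp1 lies at chr4:80833963-80834262 on the plus strand, Slc24a5 at chr2:125067877-125068176 on the plus strand and Mlph at chr1:90914850-90915149 on the plus strand. Kcnj13, a potassium channel gene described with the strongest genes, lies at chr1:87394680-87394979 on the minus strand. Mcoln3, a coat colour gene described with the spread over passages, lies at chr3:146121541-146121840 on the plus strand.
Tyrp1: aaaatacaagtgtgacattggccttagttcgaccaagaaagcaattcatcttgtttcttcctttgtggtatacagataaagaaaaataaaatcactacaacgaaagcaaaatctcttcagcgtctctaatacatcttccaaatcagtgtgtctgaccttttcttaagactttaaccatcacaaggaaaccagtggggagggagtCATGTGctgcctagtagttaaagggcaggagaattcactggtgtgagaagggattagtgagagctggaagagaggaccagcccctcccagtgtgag
Slc24a5: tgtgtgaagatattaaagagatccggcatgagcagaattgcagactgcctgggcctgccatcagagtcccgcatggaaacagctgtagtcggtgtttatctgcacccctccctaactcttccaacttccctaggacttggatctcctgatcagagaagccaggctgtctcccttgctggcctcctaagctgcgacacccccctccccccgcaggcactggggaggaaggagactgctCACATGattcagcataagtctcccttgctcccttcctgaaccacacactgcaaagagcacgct
Mlph: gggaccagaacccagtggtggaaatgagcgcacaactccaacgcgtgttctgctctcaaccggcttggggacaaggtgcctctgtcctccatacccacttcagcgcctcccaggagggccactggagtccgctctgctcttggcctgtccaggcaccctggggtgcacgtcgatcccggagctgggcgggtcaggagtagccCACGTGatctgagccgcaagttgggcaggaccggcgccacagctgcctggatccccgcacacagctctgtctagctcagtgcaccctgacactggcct
Kcnj13: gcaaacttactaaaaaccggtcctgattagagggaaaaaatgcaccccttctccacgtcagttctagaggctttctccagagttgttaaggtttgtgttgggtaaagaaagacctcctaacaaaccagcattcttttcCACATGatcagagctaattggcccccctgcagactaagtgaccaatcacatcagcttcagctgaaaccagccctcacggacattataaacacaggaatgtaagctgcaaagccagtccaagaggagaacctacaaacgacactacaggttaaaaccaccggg
Mcoln3: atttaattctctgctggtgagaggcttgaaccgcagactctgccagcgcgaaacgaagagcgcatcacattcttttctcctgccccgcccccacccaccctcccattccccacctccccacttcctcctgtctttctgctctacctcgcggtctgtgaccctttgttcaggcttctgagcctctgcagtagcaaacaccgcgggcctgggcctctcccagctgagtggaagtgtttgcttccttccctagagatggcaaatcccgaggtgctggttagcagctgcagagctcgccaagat
In Tyrp1 the letters CATGTG began 46 bases before the start site. In Slc24a5 CACATG began 13 bases before it, and in Kcnj13 112 bases before it. The Mlph window held CACGTG, 48 bases before the start, and no CATGTG. The Mcoln3 window held neither motif, and neither did those of the marker Mreg and the strong gene Ptgds. The marker Pax3 had no window in the promoter table. Among strong genes of other roles, the window of Gnb1, printed below, held CACATG. Those of Vim, B2m, Ctsz and Cnn3 held neither motif. Over the 27025 promoters of the table, CATGTG stood on either strand in 14.1% and CACGTG in 7.24%, so a match is a description and does not show a bound site.

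After Tyrp1, the strongest protein-coding genes with a row on their own chromosome were B2m, Vim and Anxa5. B2m, the light chain of class I histocompatibility molecules, gave 12.14, 12.20 and 12.10 at passages 47, 54 and 56 (12.15 ± 0.050, SD, n = 3). Vim, the intermediate filament protein vimentin found in cells of mesenchymal and neural crest origin, gave 11.65, 11.79 and 11.60 (11.68 ± 0.10, SD, n = 3). Anxa5, a calcium-dependent phospholipid-binding protein, averaged 11.57 ± 0.042 (SD, n = 3). No 2 of these 3 genes changed places at any passage, and Tyrp1 stayed above them. Gnb1, a β subunit of heterotrimeric G proteins, averaged 11.14 with an SD of 0.0096 (n = 3), a small spread beside the median SD of 0.0844 over all genes. Serinc3 had the same rounded mean of 11.14, and their order is within the spread of the arrays.

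The next genes had wider spreads. Kcnj13, an inward-rectifier potassium channel (Kir7.1) known from the retinal pigment epithelium and from the stripe pattern of zebrafish, gave 11.31, 10.20 and 10.97 (10.83 ± 0.57, SD, n = 3). Its passage 54 value lay 1.10 below its highest. Of 27 ranked genes with a Kcn symbol 1 was strong (3.70%), namely Kcnj13, and 9 were dim (33.3%). Over all genes these shares were 10% and 30%. Ptgds, a prostaglandin D synthase, gave 11.22, 10.64 and 11.16 (11.005 ± 0.32, SD, n = 3) and was likewise low at passage 54. Ccn1, a secreted matrix protein of early growth responses, went the other way, with 10.96, 11.40 and 10.63 (10.995 ± 0.39, SD, n = 3). Their means were nearly equal, and with SDs of that size the ranks of Ptgds, Ccn1, Slc24a5 and Kcnj13 are not separated. Fn1, fibronectin, gave 10.80, 10.77 and 10.28 (10.62 ± 0.29, SD, n = 3), the lowest value being that of passage 56.

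The rest of the 25 lay between 10.61 and 10.97. They included the lysosomal protease Ctsz (10.88), the sorting receptor Sort1 (10.85), the disulfide isomerase Pdia3 (10.83), the cysteine protease inhibitor Cst3 (10.79) and the actin-binding calponin Cnn3 (10.97). Also in this range were Tmem59 (10.86), Akr1a1 (10.69), Bzw1 (10.69), Nckap1 (10.65), the glutathione transferase Gstm1 (10.63) and the small GTPase Rhoc (10.61). The rows named Hspa8 (12.70) and Hnrnpa3 (10.91) also ranked here, but their identifiers name chromosomes 1 and 3 while RefSeq places the genes on 9 and 2. Signal from those genes and from copies of them cannot be told apart in these rows.

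**Figure D2:**
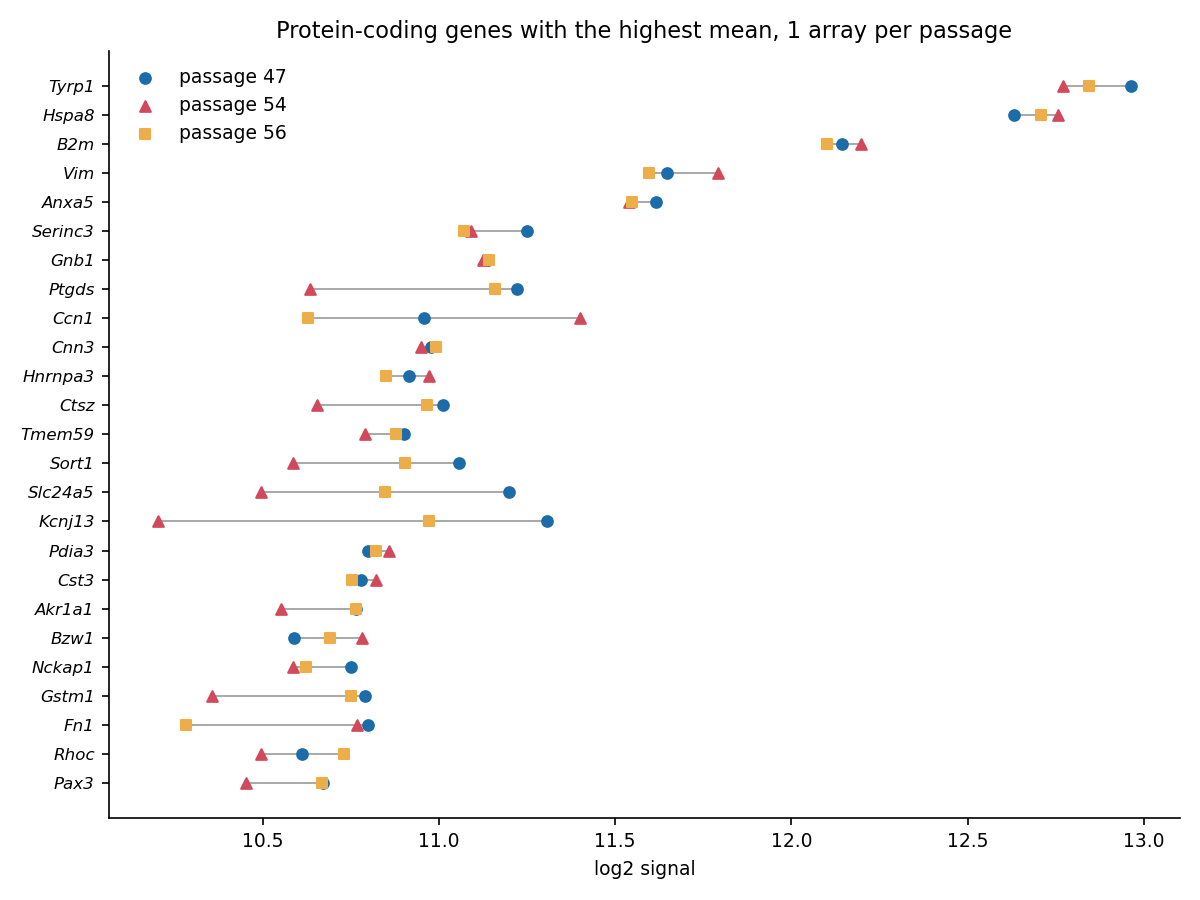
Log2 signal (horizontal axis) of the 25 protein-coding genes with the highest mean (rows), with 1 point per passage and a grey line over the range. Tyrp1 leads at every passage, and Kcnj13, Slc24a5, Ptgds and Sort1 have their passage 54 point furthest left, while Ccn1 has it furthest right.

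Protein-coding genes filled only 12 of the top 100 places, and pseudogenes filled 74. Pseudogenes were strong in 268 of 1405 cases (19.1%), against 9.17% of protein-coding genes. The highest of all, Gm12537, averaged 13.39. Of 56 pseudogenes named after a ribosomal protein parent, 35 were strong, and their median was 9.65. Such copies resemble the transcripts of their parent genes, so which of them produced the signal cannot be told apart.

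Some small structural RNAs also ranked high, although many of their classes were dim. The noncoding classes are read beside the 10% of all genes that were strong and the 30% that were dim. The medians of small nuclear (4.23) and small nucleolar RNA genes (4.24) lay below the 5.37 of all genes. Rmrp, the RNA of the ribonuclease MRP that processes ribosomal RNA, gave 12.52, 12.24 and 12.48 (12.41 ± 0.15, SD, n = 3). Of 245 small nuclear RNA genes 53 were strong (21.6%) and 117 dim (47.8%), led by Gm25189 (11.68), Gm23686 (11.67) and Gm22042 (11.55). Of 211 small nucleolar RNA genes 10 were strong (4.74%) and 100 dim (47.4%). The strong ones included Snord55 (11.16) and Snord82 (10.27), of a class that guides methylation of ribosomal RNA. Long noncoding RNA genes were mostly low. Of 900, 4 were strong and 442 dim. The strong ones included Norad, which binds Pumilio proteins (9.17 ± 0.042, SD, n = 3), and Oip5os1 (8.89). Neither was the highest of the class, since 1 other long noncoding RNA gene ranked in the top 100 of all genes. Of 254 microRNA genes 4 were strong and 118 dim, with Mir1954 at 12.18. Probes for such genes may also bind precursors or host transcripts.

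Genes of melanosome formation were spread from strong to intermediate. Of 23 listed, 11 were ranked, of which 2 were strong, 9 intermediate and 0 dim, beside 10% strong and 30% dim over all genes. The list median was 7.58, beside a median of 5.37 over all genes. After Tyrp1 and Slc24a5 came Atrn, attractin, which takes part in the switch between melanin types (8.43), and Hps3, a subunit of the BLOC-2 sorting complex (8.20 ± 0.30, SD, n = 3). Vps39, a tethering factor of late endosomes, gave 7.59, and Snapin, a BLOC-1 subunit, gave 7.58. Bloc1s6, the BLOC-1 subunit pallidin, averaged 6.90, below its partner Snapin in rank. The AP-4 adaptor subunits Ap4b1 (6.68) and Ap4e1 (6.32) stood near the end of the list. The lowest member was Slc7a11, the cystine transporter that feeds red and yellow pheomelanin, with 6.65, 5.64 and 5.47 (5.92 ± 0.63, SD, n = 3). Slc7a11 was high at passage 47 and lower at both later passages.

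Genes of melanosome transport had 2 strong and 9 intermediate members among 11 ranked of 17 listed, with a median of 6.53. After Mlph the highest was Cdc42, a GTPase of actin dynamics and filopodia (9.28 ± 0.048, SD, n = 3). Rab29 (7.49), Stx16 (7.47) and Rab13 (7.04) followed, all regulators of vesicle traffic. Rab3b (5.51), the granule-docking protein gene Sytl1 (5.35) and the epithelial Rab25 (5.30) were the lowest. None of the 11 was dim, beside 30% of all genes, and 10% of all genes were strong.

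Among transcription factors tied to melanocytes, 15 of 21 were ranked, with 2 strong, 13 intermediate and 0 dim and a median of 6.97. The strong share lay near the 10% of all genes, and 30% of all genes were dim. After Pax3 stood Id1, an inhibitor of helix-loop-helix factors, with 8.82, 8.88 and 9.02 (8.91 ± 0.10, SD, n = 3). Creb1, which carries the cyclic AMP signal to Mitf, averaged 8.42 and Id3 8.31, both just below the strong limit. Tfap2b, an AP-2 factor of the neural crest, gave 7.84, 8.05 and 7.38 (7.75 ± 0.34, SD, n = 3). Sox18 (5.94) and Hey1 (5.32) were lower, and Sox17, a factor of endoderm and endothelium, was next to the dim limit at 4.26 ± 0.021 (SD, n = 3).

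Signals and survival genes gave 1 strong and 13 intermediate members among 14 ranked of 23 listed, with a median of 7.25. Here too the strong share was near the 10% of all genes, of which 30% were dim. The strong one was Mcl1, an anti-apoptotic relative of Bcl2, with 9.92, 9.75 and 9.88 (9.85 ± 0.086, SD, n = 3). Nras, a GTPase often mutated in melanoma, averaged 8.49, just under the limit. Csf1 (7.98 ± 0.33, SD, n = 3), Notch2 (7.88) and Bcl2l1 (7.76) came next. The lowest members were the endothelins Edn2 at 5.91 and Edn3 at 5.41 and the growth factor Fgf2 at 4.596, all ligands, as is Csf1 near the top.

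The cells were grown in TPA, which binds several protein kinases C and other proteins with a C1 domain. Of 17 listed genes 8 were ranked, with 2 strong, 6 intermediate and 0 dim, beside 10% strong and 30% dim over all genes. The list median was 7.46. The strong ones were Prkci (8.89 ± 0.077, SD, n = 3), an atypical isoform that phorbol esters do not activate, and the related kinase Pkn2 (8.71). Prkcq, an isoform that phorbol esters do activate, gave 8.27, 7.67 and 8.20 (8.05 ± 0.33, SD, n = 3). The diacylglycerol kinases Dgkd (7.92) and Dgkz (6.999), which remove the natural activator, were intermediate. Rasgrp1 (4.69) and Chn1 (5.13), both phorbol ester receptors of other kinds, were lowest.

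S100 genes, small calcium-binding proteins of which several mark cells of the neural crest, divided within their cluster on chromosome 3. Of 13 ranked of 15 listed, 1 was strong, 10 intermediate and 2 dim, beside 10% strong and 30% dim over all genes. The list median was 5.74. S100a1 led with 8.94, 8.26 and 8.73 (8.65 ± 0.35, SD, n = 3), a range that crosses the strong limit. S100a4 (7.90), S100a13 (7.55), S100a16 (6.59) and S100a10 (6.09) followed. S100a8, a protein of neutrophils, was dim at 2.98 ± 0.081 (SD, n = 3), as was S100a5 at 3.98, while S100a9 was 4.34.

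Genes used by most cells lay higher than the ranking as a whole, in which 10% of genes were strong and 30% dim. Cytoskeleton genes were 13 strong and 7 intermediate of 20, with a median of 9.56. They were led by Vim, Rhoc, Cap1 (10.57), Gsn (10.42) and Arpc2 (10.28), and their lowest members were the platelet tubulin Tubb1 (4.91) and villin, Vil1 (4.88), a protein of gut microvilli. Respiratory chain genes had a median of 8.41, with 8 of 17 strong, Atp5g3 the highest at 9.01 and Cox4i2, the lung isoform, the lowest at 6.08. Proteasome genes had a median of 8.18 with 4 of 11 strong, led by Psmb7 (9.46). Cell division genes had a median of 8.15 with 8 of 28 strong, among them the cyclin Ccna2 (9.47), the ubiquitin-conjugating enzyme Ube2c (9.31) and the spindle factor Tpx2 (9.25). Ribosomal protein genes had a median of 8.16 with 4 of 9 strong, from Rps3a1 at 10.42 to Rpl22l1 at 5.84. The Rpl35 row (10.60) has an identifier of chromosome 1 while the gene lies on 2. No ranked gene of these lists was dim.

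Folding and lysosomal genes ranged widely, and are read beside the 10% of all genes that were strong and the 30% that were dim. Of 15 protein folding genes 4 were strong, with Pdia3, the translocon-associated Ssr2 (10.36), the endoplasmic reticulum chaperone Hspa5 (10.15) and the mitochondrial chaperonin Hspd1 (9.90), and the muscle chaperone Hspb7 was lowest at 4.89. Of 15 lysosome and endosome genes 6 were strong and 9 intermediate, with a median of 7.72. Ctsz and Ctsa (10.24), the fucosidase Fuca1 (9.32) and the proton pump subunits Atp6v0b (9.22) and Atp6v1g1 (9.14) led. Atp6v0d2, another subunit of that pump, gave 8.39, 7.65 and 8.62 (8.22 ± 0.50, SD, n = 3). The proteases Ctss (4.34) and Ctsk (4.31), known from macrophages and osteoclasts, and the kidney pump subunit Atp6v1g3 (4.71) lay close to the dim limit.

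**Figure D3:**
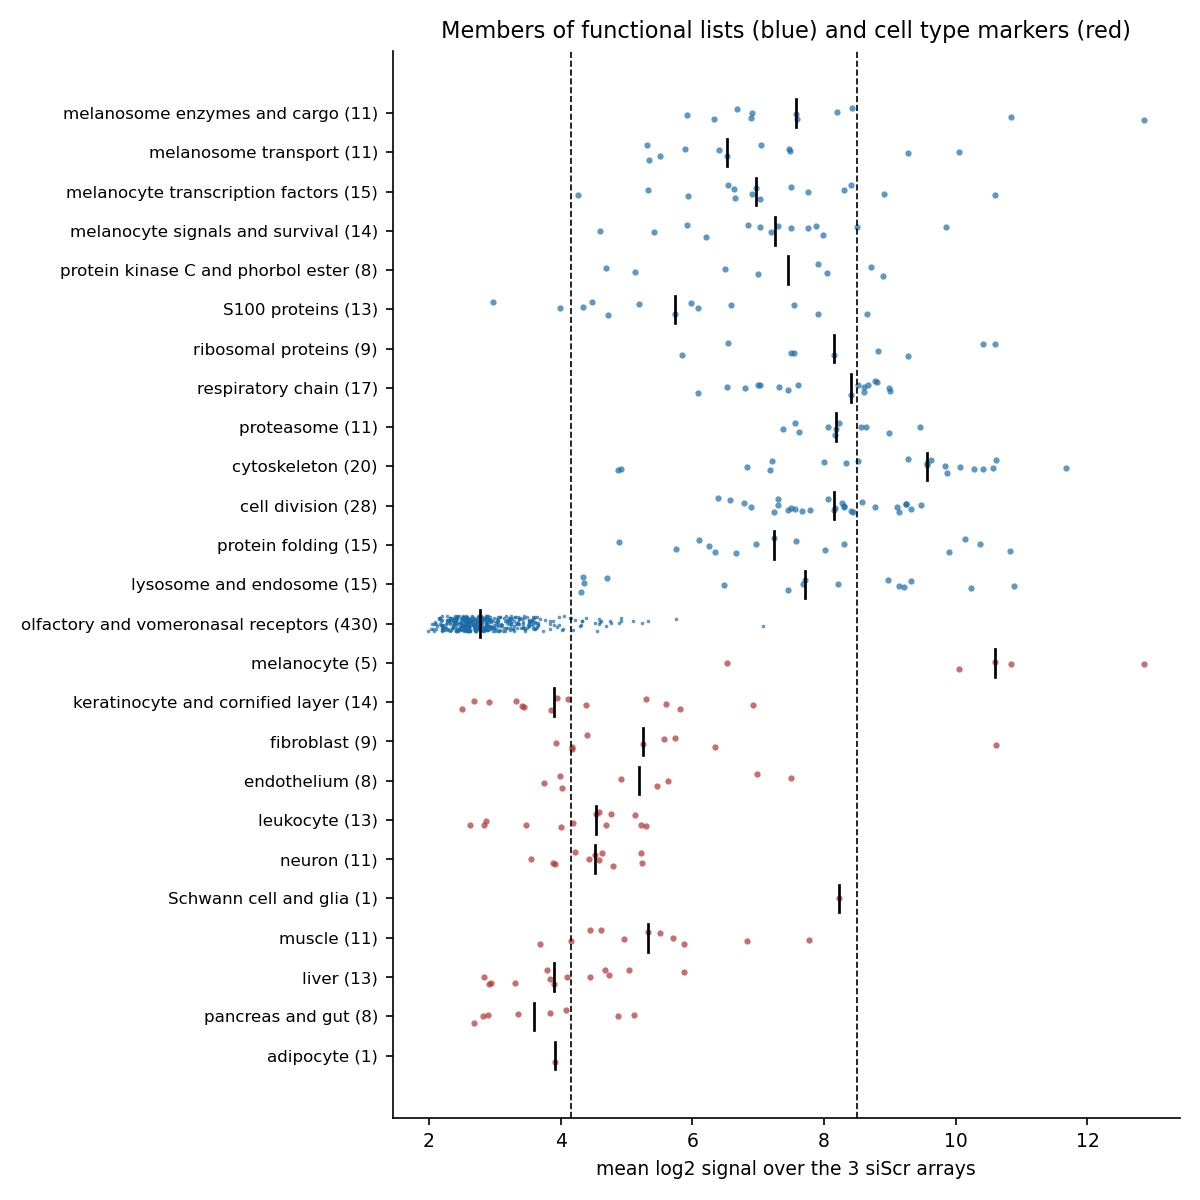
Mean log2 signal (horizontal axis) of each ranked member of the functional lists (blue) and cell type marker lists (red), with the number ranked in parentheses, a bar at the list median and dashed lines at the dim and strong limits. The cytoskeleton list has the highest functional median (9.56), the receptor genes the lowest (2.77), and markers of most other cell types lie left of the strong limit.

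Markers of other cell types are read beside the 30% of all genes and 23.5% of protein-coding genes that were dim. Of 14 keratinocyte and cornified layer genes, 9 were dim and 0 strong, with a median of 3.90. Filaggrin, Flg, was the highest at 6.92 ± 0.14 (SD, n = 3), while involucrin, Ivl, was dim at 3.95 and Sprr3 at 2.50. Of 13 leukocyte genes 5 were dim and 0 strong, a dim share not far from that of all genes, with a median of 4.54. Ptprc, the pan-leukocyte CD45, gave 2.83, 2.84 and 2.84 (2.84 ± 0.0045, SD, n = 3), at the level of the receptor genes of the nose. Liver genes had 8 dim of 13 (median 3.91) and pancreas and gut genes 6 dim of 8 (median 3.60). The amylase genes Amy1 (2.81) and Amy2b (2.89) and the intestinal disaccharidase Sis (2.69) were dim.

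Fibroblast, endothelial, neuronal and muscle lists had dim shares near or below that of all genes. Of 9 fibroblast genes 1 was strong, namely Fn1, 7 intermediate and 1 dim, with a median of 5.26. Col3a1, a fibrillar collagen, averaged 6.34 ± 0.25 (SD, n = 3), Dpt 4.40, Fap 4.17 and Prrx1 3.93, so the strong level of Fn1 was not shared by the others. Of 8 endothelial genes 5 were intermediate and 3 dim, with Eng (7.51) and Vcam1 (6.98) the highest and Tek (3.99) and Sele (3.75) dim. Neuronal genes had 8 intermediate and 3 dim (median 4.52), and the highest, Syt2, was 5.24. Muscle genes had 10 intermediate and 1 dim (median 5.32), led by the cardiac troponin Tnnt2 (7.77 ± 0.18, SD, n = 3), while titin, Ttn, was dim at 3.68. Of the glial markers only Pmp2, a myelin protein of Schwann cells, which share the neural crest origin, was ranked, with 8.53, 7.76 and 8.40 (8.23 ± 0.41, SD, n = 3). The fat cell marker Fabp4 was dim at 3.91. A low share of cells with a gene and a low level in every cell cannot be told apart in RNA from a whole culture.

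The 3 arrays differed little across genes. The median SD was 0.0844 and the 95th percentile 0.231. The correlation across genes was 0.996 between passages 47 and 54, 0.998 between 47 and 56 and 0.996 between 54 and 56, where genes are not independent replicates. The median SD was 0.101 in the strong band, 0.0878 in the intermediate band and 0.0746 in the dim band. Of 7659 genes, 242 (3.16%) spanned more than 0.5 and 18 more than 1, of which 5 were strong, 13 intermediate and 0 dim. Without passage 54 these counts were 43 and 4, without passage 47 they were 132 and 5, and without passage 56 they were 168 and 17. For a given row, a range over 2 arrays cannot exceed that over 3, so lower counts were fixed in advance. In 162 of the 242, passage 54 was the array farthest from the other 2, above them in 82 genes and below in 80. The passage 54 array also had a slightly narrower distribution, with a 90th percentile over the ranked genes of 8.47 against 8.55 and 8.53 at passages 47 and 56. Its 30th percentile was 4.20 against 4.12 and 4.15. The part of this in the differences was not tested, and counts after quantile normalisation are therefore given beside those as deposited. A passage has 1 array, so a difference between passages has no replicate.

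Of the 10 protein-coding genes with the largest SD that were not dim, 7 were highest at passage 54 and 3 at passage 47. The first group held Ifi207, Csprs, Ifi204, Ifi211, Sp100, Mndal and Ifih1, most of them known as interferon-inducible. Ifi204, a HIN-200 protein that senses DNA in the nucleus, gave 8.75, 10.41 and 9.30 at passages 47, 54 and 56 (9.49 ± 0.85, SD, n = 3). Ifi207 gave 7.06, 8.83 and 8.13, Ifi211 gave 7.98, 9.40 and 8.31, and Csprs gave 6.96, 8.70 and 7.79. Passage 47 was the lowest for each, and passage 56 lay between. Of 10 ranked HIN-200 genes, 1 of them a pseudogene, 9 were highest at passage 54 and 9 lowest at passage 47, as deposited and after quantile normalisation, beside 40.2% and 36.9% of all genes as deposited. These genes neighbour each other on chromosome 1 and resemble each other in sequence, so they are not independent. This family and the guanylate-binding genes below were picked with these same values in view. Ifi207, Ifi204, Ifi211 and Mndal were already in the group above, so the family counts only describe it and add no separate support. Ifih1 and Sp100, named above for their large SD, showed the same order of passages. Ifih1, the RNA sensor MDA5 on chromosome 2, gave 6.81, 7.85 and 6.93 (7.20 ± 0.57, SD, n = 3). Sp100, a nuclear body protein on chromosome 1 like Csprs and the HIN-200 genes, gave 6.33, 7.55 and 6.51 (6.80 ± 0.66, SD, n = 3). The guanylate-binding genes Gbp7 (8.25, 9.15 and 8.30), Gbp2 (7.50, 8.15 and 7.41) and Gbp3 (7.14, 7.88 and 7.22) were also highest at passage 54. The type I interferon genes themselves were intermediate in 10 and dim in 6 of 16 cases, 1 of them a pseudogene, near the 60% and 30% of all genes. They were led by Ifnz with 6.31, 6.12 and 6.32.

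The other 3 genes were highest at passage 47. Eng, endoglin, a coreceptor for TGF-β ligands, gave 8.30, 7.20 and 7.02 (7.51 ± 0.69, SD, n = 3). Trib3, a pseudokinase of the amino acid stress response, gave 7.89, 6.87 and 6.59 (7.12 ± 0.69, SD, n = 3), and Slc7a11, a target of the same response, had the values given above. In these 3 genes passage 47 stood apart, with passage 54 closer to 56 than to 47. Mcoln3, an endolysosomal cation channel whose mutation alters coat colour in varitint-waddler mice, gave 9.95, 8.88 and 9.68 (9.50 ± 0.56, SD, n = 3). It ran with Kcnj13 and Glrb (9.32, 8.31 and 8.77), low at passage 54.

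The pigment lists differed in how often passage 54 was the lowest array, which it was for 34.5% of all genes and 36.3% of the intermediate band. Of 11 genes of melanosome formation 10 were lowest there, as deposited and after quantile normalisation, and the list mean was 8.19 at passage 47, 7.85 at passage 54 and 8.01 at passage 56. The exception was Slc7a11, and Tyrp1 and Slc24a5 of this list were already counted among the 5 markers. Of 11 melanosome transport genes 5 were lowest at passage 54 and 5 at passage 56, and of 15 transcription factor genes 6 at each of these passages, so these lists lay nearer the share of all genes. In the strong band as a whole 406 of 766 genes (53.0%) were lowest at passage 54, and 357 (46.6%) after quantile normalisation. Lysosome and endosome genes were lowest there in 10 of 15 cases (11 after quantile normalisation), and respiratory chain genes in 14 of 17 (11 after quantile normalisation). Ribosomal protein genes were highest at passage 47 in 9 of 9 cases and in 7 of 9 after quantile normalisation, beside 28.0% of all genes and 48.4% of the strong band as deposited. Their list means were 8.39, 8.23 and 8.27.

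Cell division genes followed another order, lowest at passage 47. Of 28 genes 26 were lowest there, beside 36.9% of all genes, 35.8% of the intermediate band and 17.5% of the strong band as deposited. After quantile normalisation all 28 were lowest there, beside 35.6% of all genes, 37.1% of the intermediate band and 30.5% of the strong band. The list mean was 7.81 at passage 47, 8.14 at passage 54 and 8.20 at passage 56. Mcm3, a subunit of the replicative helicase, gave 8.33, 8.94 and 9.05 (8.77 ± 0.39, SD, n = 3), and Smc2, a condensin subunit, gave 7.92, 8.56 and 8.42 (8.30 ± 0.34, SD, n = 3). Pcna, the sliding clamp of DNA synthesis, gave 8.86, 9.20 and 9.29 (9.12 ± 0.22, SD, n = 3). The 2 exceptions as deposited, E2f1 (7.64, 7.59 and 7.78) and Cdc25b (7.72, 7.71 and 7.93), were lowest at passage 54 by a small margin. Genes of the cell cycle rise and fall together, so the 28 are not independent.

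**Figure D4:**
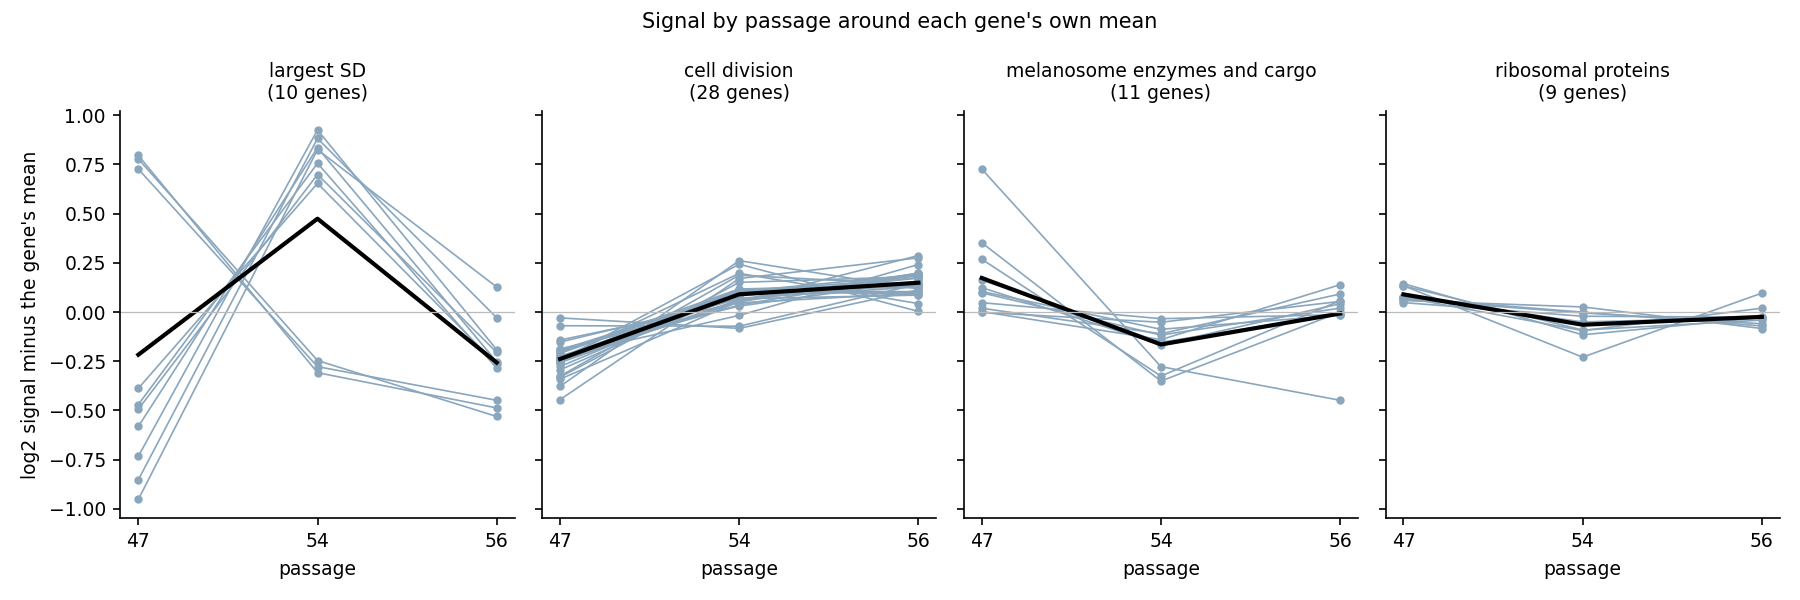
Log2 signal minus the gene's own mean over the 3 arrays (vertical axis) at passages 47, 54 and 56 (horizontal axis, drawn at equal distances), with 1 line per gene and the mean in black, for the 10 protein-coding genes of largest SD and for 3 lists. Cell division genes are low at passage 47, melanosome genes are low at passage 54, and ribosomal protein genes are high at passage 47.

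Promoter sequence, which the ranking did not use, differed between the bands. Of 4614 protein-coding genes 3925 (85.1%) had a promoter in the RefSeq table, and 1 window of 300 bases was taken for each. The median number of CG dinucleotides, the sites of DNA methylation that cluster in CpG islands, was 23 in 357 strong, 18 in 2677 intermediate and 2 in 891 dim promoters. Without the olfactory and vomeronasal receptors the dim median was 4 (617 promoters). Between the quartiles the count ran from 15 to 31 in strong and from 1 to 6 in dim promoters, so most of the strong promoters lay above most of the dim ones. The median GC content was 62.7% in strong and 44% in dim promoters. These shares are descriptions with no test. The window of Gnb1 (chr4:155491111-155491410, plus strand, 31 CG) and that of Olfr1186, the receptor gene with the lowest mean (1.99) among those with a promoter (chr2:88525251-88525550, plus strand, 0 CG), show the contrast, with each CG in capitals.
Gnb1: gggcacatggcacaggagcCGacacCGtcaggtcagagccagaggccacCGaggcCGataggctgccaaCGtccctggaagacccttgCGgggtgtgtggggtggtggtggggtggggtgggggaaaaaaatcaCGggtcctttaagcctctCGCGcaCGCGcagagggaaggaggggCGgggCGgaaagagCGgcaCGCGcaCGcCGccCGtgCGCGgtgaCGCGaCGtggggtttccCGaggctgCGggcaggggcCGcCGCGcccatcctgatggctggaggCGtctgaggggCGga
Olfr1186: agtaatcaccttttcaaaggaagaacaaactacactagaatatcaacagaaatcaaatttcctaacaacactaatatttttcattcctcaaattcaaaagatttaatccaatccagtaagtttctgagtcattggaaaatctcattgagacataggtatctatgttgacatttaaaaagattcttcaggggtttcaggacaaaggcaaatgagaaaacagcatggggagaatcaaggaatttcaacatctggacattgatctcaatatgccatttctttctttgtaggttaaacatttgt
By comparison, the windows of Tyrp1, Kcnj13, Slc24a5, Mcoln3 and Mlph held 3, 5, 6, 12 and 15 CG. All lie under the median of the strong band. The intermediate marker Mreg held 20, and the median over 8 promoters of the melanosome list was 20. Other strong genes, picked by hand, lay on both sides of the strong median. Ptgds, Vim, Ctsz and B2m held 2, 11, 12 and 14 CG, and Cnn3 held 33. Among the windows shown, low counts were thus also met outside the pigment genes.

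Short motifs also differed in frequency, counted on both strands. TATAAA, the core of the TATA box, stood in 7.56% of strong, 7.81% of intermediate and 32.3% of dim promoters, and in 14.2% of the whole table. Without the receptor genes the dim share was 25.4%. It was frequent in keratinocyte marker promoters, with 10 of 14, and the Kcnj13 window held it 29 bases before the start. CATGTG stood in 9.80% of strong and 18.1% of dim promoters, and CACGTG, which holds a CG, in 10.9% of strong and 3.93% of dim promoters. In promoters of the melanosome list CATGTG was found in 3 of 8, and in those of the transcription factor list in 0 of 10. Some lists of other cell types had shares close to the former. CATGTG stood in 2 of 6 fibroblast, 4 of 12 liver, 3 of 10 muscle and 4 of 14 keratinocyte promoters. Other lists were lower, with 1 of 10 leukocyte, 1 of 8 pancreas and gut, 0 of 9 neuronal and 0 of 6 endothelial promoters. The bands differ in base composition, which alone changes how often a motif is met, and its part in these shares was not tested.

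**Figure D5:**
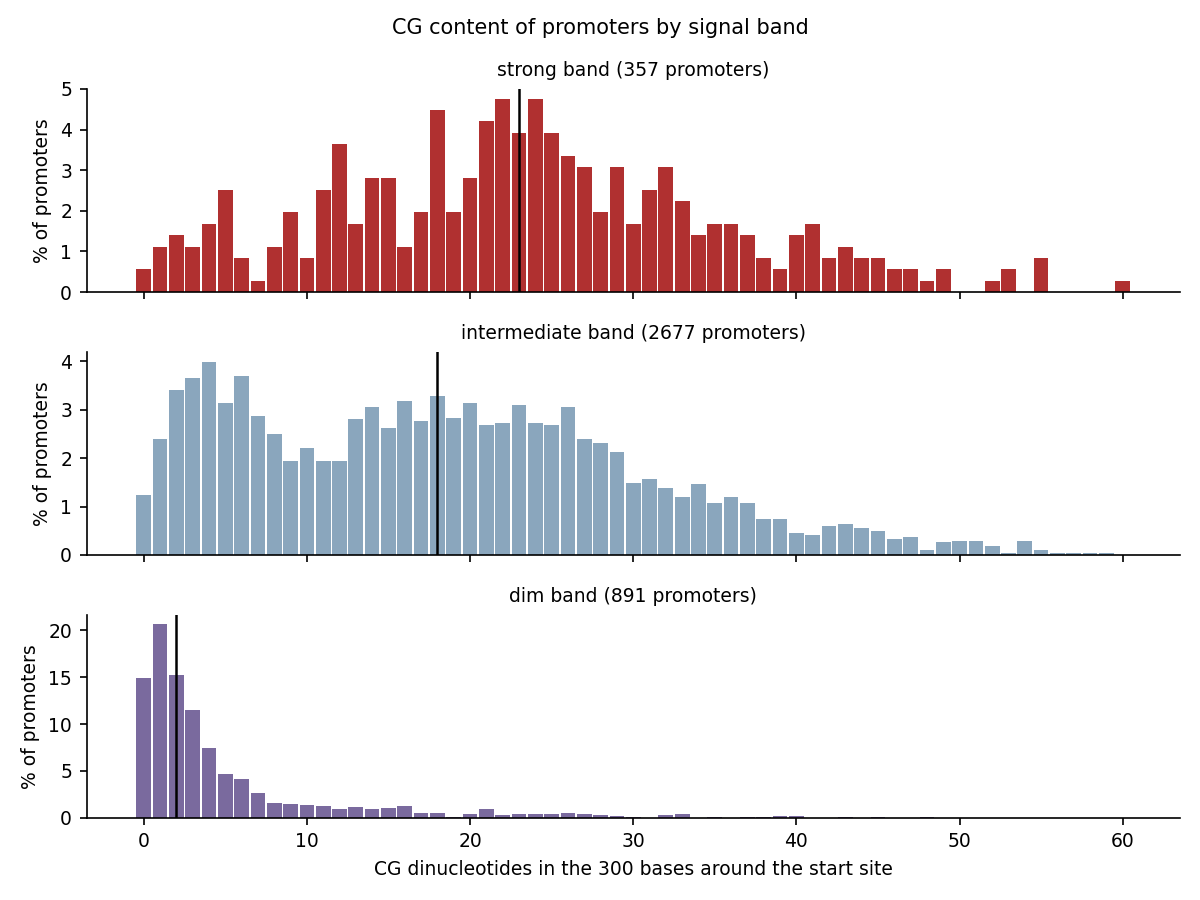
Share of promoters (vertical axis, % of the band) by number of CG dinucleotides in the 300 bases around the start site (horizontal axis), for strong, intermediate and dim protein-coding genes, with a line at each median. The strong band centres on 23, the intermediate band spreads widely around 18, and the dim band is concentrated near its median of 2.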

How the data were processed

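RNA of 3 siScr cultures of Melan-a cells was measured on biotin-labelled Affymetrix Clariom D mouse arrays, per the labels' protocols. The authors deposited 1 log2 signal for each transcript cluster and array. The submitters' processing notes name Affymetrix Expression Console. Its version, the summarisation, the background correction, the annotation release and the build: not given in the sources used here. Scanner files were not used here, so signal over background could not be measured, and 3 arrays limit the precision.

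Rows were named from the platform annotation, with 7715 rows paired with 1 gene, 270 with several and 8398 with none. Symbols were updated through the RefSeq gene table (334 changed, 7715 rows matched). For 16 rows the identifier names another chromosome than RefSeq. Of 54 genes with more than 1 row, the rows of 21 differed by over 1. Over all rows the array medians were 4.63 at passage 47, 4.68 at passage 54 and 4.64 at passage 56, and 67 genes share all 3 values with another gene.

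Means and SDs over the 3 arrays were computed with Python 3.11.15, numpy 2.4.6 and pandas 2.3.3, with no further normalisation, and the ranking and counting steps were checked on simulated data. There is 1 group, so no test was run. Genes are named by rule: the 5 markers, the 25 highest protein-coding genes, the 5 highest noncoding genes that are not pseudogenes, the 10 largest SDs, and up to 5 highest and 3 lowest members of each list. Other genes named, the symbol families, CACGTG, and the counts by passage were picked with the values in view. The members and lists were chosen with earlier results of these data known. Promoters come from RefSeq (GRCm38.p6), the most upstream of each gene.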

Additional observations from a re-analysis of the deposited data

How the results depend on the processing

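No paired analysis was possible because only the siScr group was used and nothing was compared between groups. Leaving out 1 replicate at a time gave a dim limit of 4.12 to 4.17 and a strong limit of 8.49 to 8.53. A range above 1 was then met in 4 to 17 genes (18 with all arrays), and a range above 0.5 in 43 to 168 (242). Lower counts of ranges were fixed in advance, since a range over 2 arrays cannot exceed that over 3. The median SD was 0.0557 to 0.0774. The lowest counts and the lowest median SD were those without passage 54. Ranking only protein-coding genes left out pseudogenes and noncoding genes, so strong pseudogenes were 0 by definition. The dim limit was then 4.67 and the strong limit 8.45. With fewer genes ranked, ranges above 0.5 were met in 161 genes, and 248 strong genes were lowest at passage 54. The dim limit was 3.52 at the 20th and 4.77 at the 40th percentile, and 4.26 from the receptor genes. With the top 5% as strong, the limit was 9.32, with 148 protein-coding genes, 207 genes lowest at passage 54 and a median of 22 CG. The dim median was 3 CG with only protein-coding genes, with the receptor limit, with the 40th percentile and with all promoters of a gene (added after the data were seen), and 4 without the receptor genes. The means of the 5 markers and of the 25 highest protein-coding, 5 highest noncoding and 10 largest-SD genes were checked after quantile normalisation. None of these means over the 3 arrays moved by over 0.02, and means of other named genes were not checked. Values of single passages moved more, as for Pmp2 at passage 47 from 8.53 to 8.49. The deposited scale, with unknown background, limits what can be said of dim genes.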

Other observations

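Families chosen by symbol after the values were seen are read beside the 10% of all genes that were strong and the 30% that were dim. All 11 ranked Skint genes, epithelial proteins that shape T cells of the skin, were dim, with a median of 2.69. Of 11 serine protease inhibitor genes of clade B (Serpinb) 10 were dim, and Serpinb8 was intermediate at 7.74. The 3 major urinary protein genes, secreted by the liver, were dim at 2.84 to 3.01. Of 11 protein-coding Sprr genes 8 were dim and of 20 Lce genes 12, both encoding proteins of the cornified envelope of keratinocytes. Of 8 protein-coding cytochrome P450 genes of family 4, several of which oxidise fatty acids, 7 were dim.

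Other families lay in the middle. All 18 collagen genes were intermediate, with a median of 6.14. Of 8 symbols of the Hoxd cluster, which patterns limbs and the body axis, 5 were intermediate and 3 dim. Hoxd8 had 5.91 and Hoxd9 5.53, while Hoxd10 had 3.65 and Hoxd13 3.50. Of 12 Rab GTPase genes 1 was strong, Rab2a of the early secretory pathway, with 10.34, 10.36 and 10.26 at passages 47, 54 and 56 (10.32 ± 0.054, SD, n = 3). Of 93 solute carrier symbols 8 were strong (8.60%), a share near that of all genes, as was the Rab share of 8.33%. Beside Slc24a5 they included the glucose transporter Slc2a1 (9.26, 9.18 and 9.45), the zinc transporters Slc39a1 (9.17) and Slc30a4 (8.62), the neuronal amino acid transporter Slc6a17 (9.01) and the choline transporter Slc44a1 (8.70). Zinc finger genes named Zfp were strong in 2 of 47 cases and dim in 4.

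Of 8398 rows with no gene, 316 (3.76%) reached the strong limit and 4203 (50.0%) lay below the dim limit, with a highest mean of 13.62. Of 270 rows with several genes, 54 (20.0%) reached the strong limit.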
